A study of Mus musculus with 24 samples.

Results

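The 9 genes described here mark B cells or encode parts of their antigen receptor: Ighm, Igll1, Cd79a, Cd79b, Blk, Cd22, Ms4a1, Fcrla and Pou2af1. They were chosen by symbol, as probe sets for which the array annotation gives exactly 1 symbol, and they are 9 of 18193 genes and 24 of 45037 probe sets on the array. Ighm holds 11 of the 24 probe sets, Fcrla 3, Igll1, Ms4a1 and Cd22 2 each, and the other genes 1 each. Another 4 probe sets list a member beside other symbols and were not used. Each gene was read from its brightest probe set, the one with the highest mean over all arrays, and the other probe sets are given where they differ.

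Expression was measured on 24 Affymetrix mouse arrays, with 12 of the gastrocnemius (a calf muscle) and 12 of the heart. Both tissues came from the same 12 males, which were 2 months old. There were 3 animals in each of 4 groups: wild type (WT) and Cmah KO, with the strain label C57BL/6J, and mdx and Cmah KO, mdx, with the strain label C57BL6/10J. The mdx mouse lacks dystrophin and is a model of Duchenne muscular dystrophy. The Cmah KO carries a human-like mutation of Cmah, the gene whose enzyme makes the sialic acid Neu5Gc. Dystrophin loss and strain label run together in these groups and cannot be told apart. In whole tissue, fewer B cells and less RNA per B cell cannot be told apart either.

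A B cell recognises antigen through membrane immunoglobulin, and Ighm encodes the heavy chain of the IgM class. The chains encoded by Cd79a and Cd79b pass the signal into the cell, where Src-family kinases such as Blk act on them, and Cd22 is an inhibitory coreceptor of the Siglec family that binds sialic acid, in the mouse preferably Neu5Gc. Igll1 encodes part of the surrogate light chain of B cell precursors, Ms4a1 encodes the surface protein CD20, Fcrla an Fc receptor-like protein inside B cells, and Pou2af1 a coactivator of octamer-binding factors at immunoglobulin genes. Healthy muscle and heart hold few B cells, whereas lymph nodes, which lie in fat near many organs, hold many.

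Promoter sequence was at hand for 5 of the 9 genes (Cd22, Cd79a, Fcrla, Igll1 and Pou2af1), from RefSeq with the build GRCm38.p6. The 250 bases before the start of transcription were searched on both strands for the octamer ATGCAAAT (ATTTGCAT on the other strand), at which the partner factors of Pou2af1 bind, and for CCCNNGGG, a core of sites of the B lineage factor Ebf1. The octamer was in 0 of the 5 windows and in 1.60% of 32851 windows of the same length from all genes of the table. In the 5 windows no match of one motif could therefore overlap a match of the other. CCCNNGGG was in 2 of the 5 windows, those of Cd22 and Igll1, and in 11.8% of all windows. The sequences of Cd22 and Igll1 are shown because they hold this match, in capitals, and that of Cd79a because it encodes a chain of the receptor and holds neither. All are written 5′ to 3′ on the strand of the gene. The Cd22 window lies at chr7:30879029-30879278 on the minus strand, with its match starting 48 bases before the start site. The Igll1 window lies at chr16:16863986-16864235 on the minus strand, with its match 231 bases before the start site, and the Cd79a window at chr7:24897247-24897496 on the plus strand.
Cd22: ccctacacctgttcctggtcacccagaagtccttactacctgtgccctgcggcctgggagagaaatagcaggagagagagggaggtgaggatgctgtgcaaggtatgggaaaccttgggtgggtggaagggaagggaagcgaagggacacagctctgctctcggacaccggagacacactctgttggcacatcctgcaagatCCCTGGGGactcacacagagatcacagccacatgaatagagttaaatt
Igll1: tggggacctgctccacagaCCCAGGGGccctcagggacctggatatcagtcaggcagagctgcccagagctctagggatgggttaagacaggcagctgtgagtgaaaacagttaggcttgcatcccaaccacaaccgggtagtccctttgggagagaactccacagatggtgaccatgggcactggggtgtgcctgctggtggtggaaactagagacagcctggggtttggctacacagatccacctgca
Cd79a: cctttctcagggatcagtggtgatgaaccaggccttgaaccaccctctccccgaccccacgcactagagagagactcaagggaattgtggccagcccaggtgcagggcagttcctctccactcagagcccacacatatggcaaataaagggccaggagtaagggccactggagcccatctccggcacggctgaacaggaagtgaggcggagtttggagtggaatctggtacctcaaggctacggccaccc

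Some arrays stood apart, and the main results are given with and without them. Dmd, the dystrophin gene, read 7.54 to 8.59 log2 intensity on the 6 gastrocnemius arrays of mdx and Cmah KO, mdx mice and 9.99 to 10.26 on the other 6, whereas the ranges overlapped in heart. The Cmah ranges overlapped in both tissues, and where the probe set lies relative to the mutated part is not given in the sources used here, so that it does not check the label. Each of 10 skeletal muscle genes was lower and each of 11 heart muscle genes higher in heart, all past the threshold of limma's test. Heart Cmah KO replicate 3 and heart Cmah KO, mdx replicate 2 had a Gapdh 3′ minus 5′ difference of 4.29 and 4.43 log2 units, against 0.36 to 1.60 on the other 22 arrays; a high value is a sign of degraded RNA. On the first of them 32.7% of all 18193 genes had their highest value among the 12 hearts. In gastrocnemius, WT replicate 1 and Cmah KO replicate 3 were like the other arrays in these measures but stood apart in lymphoid genes.

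In gastrocnemius the members were highest on 1 array, WT replicate 1, and for 7 of the 9 next highest on Cmah KO replicate 3. Over the 9 genes, WT replicate 1 lay a median of 4.24 log2 units above the median of the other 11 arrays and Cmah KO replicate 3 lay 1.56 above it, whereas the other 10 arrays lay between -0.53 and 0.22. WT replicate 1 held the highest value for 9 of 9 members, against 5.02% of all genes. For 5 of the 9 (Cd22, Blk, Cd79b, Fcrla and Pou2af1) it exceeded every other array by more than 2 log2 units, against 0.214% of all genes. These counts describe the array and were not tested.

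**Figure D1:**
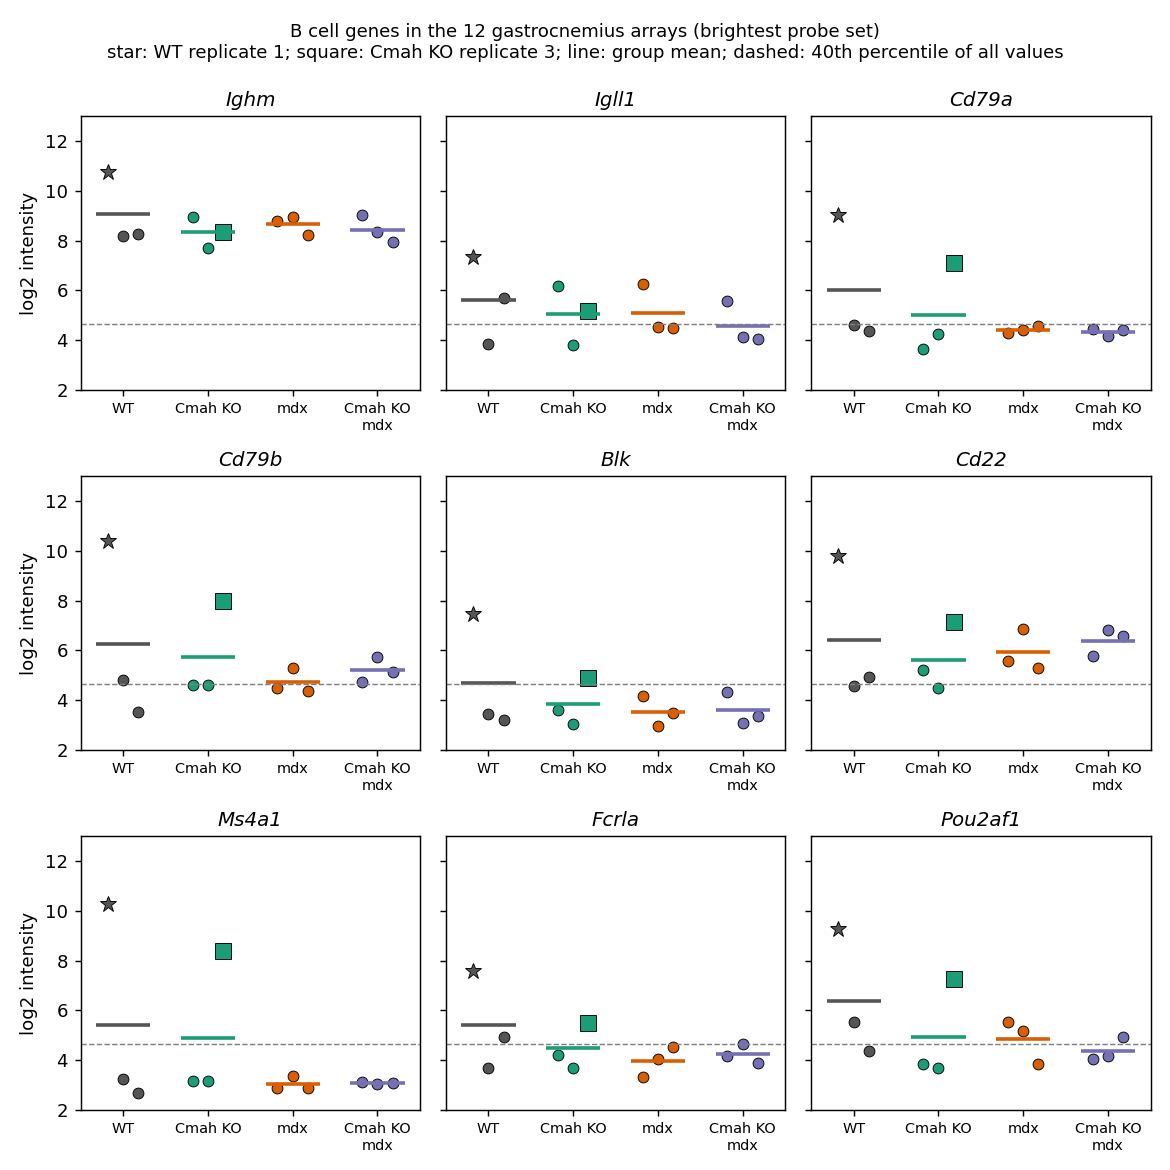
Log2 intensity of the brightest probe set of each of the 9 B cell genes on the 12 gastrocnemius arrays, by genotype; points are arrays, the star is WT replicate 1 and the square Cmah KO replicate 3, the short line is the group mean and the dashed line the 40th percentile of all gastrocnemius values (4.66). WT replicate 1 lies highest in all 9 panels, and Cmah KO replicate 3 comes next in 7 of them, all except Ighm and Igll1.

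Ighm, the IgM heavy chain, was above the 40th percentile of all values on all 12 gastrocnemius arrays. Its probe set 1427351_s_at read 10.75, 8.20 and 8.26 log2 intensity in WT, 8.96, 7.72 and 8.36 in Cmah KO, 8.77, 8.97 and 8.23 in mdx, and 9.05, 8.35 and 7.93 in Cmah KO, mdx gastrocnemius. Apart from WT replicate 1 the arrays lay within 7.72 to 9.05, the groups overlapped, and Cmah KO replicate 3 was not raised. The next brightest Ighm probe set, 1427329_a_at, read 9.88, 8.21 and 7.34 in WT, 7.50, 8.41 and 8.50 in Cmah KO, 6.47, 7.37 and 7.14 in mdx, and 6.03, 7.27 and 7.00 in Cmah KO, mdx. Here the Cmah KO arrays lay above all Cmah KO, mdx arrays, while WT and mdx overlapped. Another, 1425385_a_at, was as high on Cmah KO replicate 1 (7.50) as on WT replicate 1 (7.40), and the other 8 Ighm probe sets stayed at or under 5.98 on every gastrocnemius array, so the probe sets of this gene do not order the arrays alike.

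Igll1 of the surrogate light chain was also only loosely tied to that array. It read 7.34, 3.85 and 5.69 in WT, 6.16, 3.80 and 5.17 in Cmah KO, 6.27, 4.51 and 4.49 in mdx, and 5.57, 4.11 and 4.03 in Cmah KO, mdx. The groups overlapped throughout, and the array after WT replicate 1 was mdx replicate 1. On its second probe set, 1420176_x_at, WT replicate 1 read 3.73, below the median of 3.88 over the gastrocnemius arrays.

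The signal chains of the receptor were highest on the 2 named arrays and read at most 5.73 on the rest. Cd79a read 9.05, 4.62 and 4.36 in WT, 3.65, 4.24 and 7.12 in Cmah KO, 4.29, 4.41 and 4.56 in mdx, and 4.45, 4.15 and 4.42 in Cmah KO, mdx. Cd79b read 10.42, 4.80 and 3.53 in WT, 4.63, 4.62 and 8.00 in Cmah KO, 4.50, 5.29 and 4.35 in mdx, and 4.74, 5.73 and 5.12 in Cmah KO, mdx. For reference, the 40th percentile of all gastrocnemius values was 4.66. With all arrays the groups overlapped. Apart from the 2 named arrays no WT or Cmah KO array exceeded 4.80 in either gene, and Cd79a was then lower in Cmah KO than in WT and Cd79b higher in Cmah KO, mdx than in Cmah KO, both without overlap.

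Ms4a1, which encodes CD20, gave the sharpest contrast between arrays. It read 10.29, 3.25 and 2.68 in WT, 3.15, 3.15 and 8.37 in Cmah KO, 2.89, 3.36 and 2.88 in mdx, and 3.14, 3.02 and 3.10 in Cmah KO, mdx. The 10 arrays other than WT replicate 1 and Cmah KO replicate 3 lay at 2.68 to 3.36, and their differences, such as that of Cmah KO from Cmah KO, mdx, are at the floor of the array. The second Ms4a1 probe set, 1423226_at, read 9.12 and 7.18 on the 2 named arrays and at most 3.90 on the others.

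The kinase Blk read 7.46 on WT replicate 1, 4.90 on Cmah KO replicate 3 and 2.96 to 4.33 on the other 10 arrays. Fcrla, the intracellular Fc receptor-like gene, read 7.60 and 5.50 on the named arrays and 3.32 to 4.93 on the others. Pou2af1, the octamer coactivator, read 9.29 and 7.26 there and 3.68 to 5.55 elsewhere. In these 3 genes the same 2 arrays came first and second, and with all arrays the groups overlapped. The other Fcrla probe sets showed the same top array, at 6.42 and 7.36.

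Cd22, the sialic acid-binding coreceptor, was the member whose arrays, apart from the 2 named ones, split by mdx label. The strain label runs together with it. It read 9.81, 4.56 and 4.92 in WT, 5.20, 4.50 and 7.13 in Cmah KO, 5.57, 6.87 and 5.31 in mdx, and 5.76, 6.84 and 6.57 in Cmah KO, mdx. With every array in place the groups overlapped. Without the 2 named arrays, the 6 arrays of mdx and Cmah KO, mdx lay at 5.31 to 6.87, above the 4 others at 4.50 to 5.20, an order held by 1 of the 9 members and 3.26% of all genes. The arrays left out held the highest WT and Cmah KO values of Cd22, so the order depends on leaving them out. The dimmer Cd22 probe set 1419769_at did not pass the filter on low values, and it read at most 4.84 on every array but WT replicate 1 (6.99).

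Several other marker lists were raised with the members on both of these arrays, and others were not. Relative to the other 11 arrays, the 20 measured genes of another B lineage list lay a median of 3.31 higher on WT replicate 1 and 1.24 on Cmah KO replicate 3, 15 T cell genes 2.99 and 1.27, and 6 lymph node stroma genes 3.65 and 1.77. The 7 adipocyte genes lay 2.13 and 1.08 higher, whereas 9 thymus genes lay at 0.03 and 0.05. The 8 natural killer and cytotoxic genes lay at 1.59 and -0.24. The 10 neutrophil genes lay at 2.33 and -0.14, and at 1.80 on WT replicate 2. The 14 macrophage genes lay at 0.00 and -0.76, against -0.99 and -0.86 on the other WT arrays and -0.92 and -0.63 on the other Cmah KO arrays, so that on WT replicate 1 they too were higher than on the other WT arrays. The stroma list holds Glycam1, which encodes a ligand of lymphocyte L-selectin made by the vessels of lymph nodes, and Cxcl13, a chemokine that draws B cells into follicles. It also holds Fcer2a and Cr2, which are in the other B lineage list too, so that these lists are not separate readings. Glycam1 read 12.31 and 8.64 on the named arrays and 3.12 to 3.91 on the other 10, and Cxcl13 read 10.69 and 9.23 against 5.01 to 8.48.

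As summed linear intensity, the T cell list stood at 4624 on WT replicate 1, 1323 on Cmah KO replicate 3 and 450 to 788 elsewhere. The 9 members summed to 463 to 6938 in WT, 333 to 1459 in Cmah KO, 463 to 772 in mdx and 476 to 743 in Cmah KO, mdx. The upper ends of WT and Cmah KO were the 2 named arrays. In the animal of gastrocnemius WT replicate 1 the heart, WT replicate 3, had the lowest member level of the 12 hearts (-0.58 against the other hearts), so the high level was in the calf sample alone. In the animal of gastrocnemius Cmah KO replicate 3 the heart, Cmah KO replicate 3, lay 1.74 above the others. The part of lymphoid tissue in these readings was not tested.

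The genes that stood out most on WT replicate 1 were ranked by the gap to the next array. The first 15 were Glycam1 (3.67), Cd96 (3.04), Igkv6-14 (3.03), Igkv6-15, Acap1, Ubd, Igk-V21, Cd22 (2.68), Blk (2.56), Trbv1, H2-Ob, Ms4a4b, Spib, Cr2 and Ctsw (2.43), and for each of these the next array was Cmah KO replicate 3. Members Cd22 and Blk stood among them beside immunoglobulin kappa segments and T cell genes. The 10 genes outside the members whose level was most like the members' mean over the 12 arrays were Cd8a (Pearson r 0.99), Glycam1 (0.98), H2-Ob, Ighv14-2, Cd3g, Igk-V21, Spib, Fcmr, Tnfrsf13c and Fcer2a (0.96). Over the 11 arrays without WT replicate 1 their r ran from 0.81 to 0.96. These correlations describe arrays that differ in 2 extreme values and carry no test.

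Between the members themselves, the 36 pairs had a median r of 0.81 (0.45 to 0.98) over the 12 arrays. Without WT replicate 1 the median was 0.47 and the range -0.15 to 0.95, so much of the likeness among members rested on that array.

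No member differed between genotypes past the threshold in gastrocnemius. In mdx against WT the 9 genes were all lower, with a median difference of -1.43 log2 units against -0.01 over all genes, but WT replicate 1 set this direction. Without WT replicate 1 and Cmah KO replicate 3 the median was 0.22, with 6 genes higher and 3 lower. Of the 24 member probe sets 9 passed the filter on low values, from 6 of the 9 genes; Cd79a, Blk and Ms4a1 were above it on only 2 arrays. Of these 9 probe sets 0 were called by limma (Benjamini-Hochberg adjusted p below 0.05), against 0.0169% of all tested, and 1 had an unadjusted p below 0.05. That was Ighm 1427329_a_at, at -1.49 ± 0.59 (SE, n = 3 against 3; limma unadjusted p = 0.0267, adjusted p = 1.00), and without the 2 named arrays its unadjusted p was no longer below 0.05.

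In Cmah KO, mdx against Cmah KO the median was -0.47, with 2 genes higher and 7 lower, and 0.27 without the 2 named arrays. limma called 0 of 9 probe sets, against 0.112% of all, and 1 had an unadjusted p below 0.05, again Ighm 1427329_a_at (-1.37 ± 0.59 SE, adjusted p = 0.603; -1.19 ± 0.50 without the 2 named arrays). Ms4a1 was the only gene whose 3 arrays all lay below the 3 of the other group, where 5.33% of all genes did so, and these values were at the floor.

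Without the 2 arrays Cd22 was 1.18 ± 0.52 log2 units higher in mdx than in WT (SE; limma unadjusted p = 0.0476, adjusted p = 0.838). In Cmah KO, mdx against Cmah KO it was 1.54 ± 0.52 higher (unadjusted p = 0.0145, adjusted p = 0.553). Cd22 was the only member without overlap in the first of these, where 10.1% of genes were all higher, and Cd79b and Pou2af1 joined it in the second, where 10.6% were, while Ms4a1 lay entirely lower there, as 9.05% of genes did. With all arrays the Cd22 differences were -0.51 ± 1.16 and 0.78 ± 1.16. The 2 arrays were left out for their high member values, and they held the highest WT and Cmah KO readings of Cd22 (9.81 and 7.13). The p values and orders without them depend on that choice and carry no weight of their own. The 14 macrophage genes were all higher in both comparisons, with medians of 1.18 and 1.50, and 1.45 and 1.54 without the 2 arrays; none passed the adjusted threshold, and 9 had an unadjusted p below 0.05 in each. Their part in the Cd22 reading was not tested.

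Cmah loss gave no call either. In Cmah KO against WT the median was -0.82 with 9 of 9 genes lower, and 0.11 without the 2 arrays, when Cd79a and Pou2af1 lay entirely lower, as 10.1% of genes did with 2 arrays against 2. limma called 0 of 9 member probe sets, 0% of all tested were called, and 0 members had an unadjusted p below 0.05. In Cmah KO, mdx against mdx, which involves neither array, 5 genes were higher and 4 lower with a median of 0.04, 0 of 9 were called against 0.00339% of all, and 0 had an unadjusted p below 0.05. Cd22 was 0.47 ± 1.16 (SE) higher there. The difference between the Cmah effects with and without dystrophin was called for 0 of 9 member probe sets and for 0% of all, with 0 unadjusted. Without the 2 arrays Ighm 1425385_a_at had an unadjusted p below 0.05 in Cmah KO against WT (2.18 ± 0.65 SE), in Cmah KO, mdx against Cmah KO (-1.79 ± 0.59) and in that difference (-1.91 ± 0.83), and limma called none of these. The arrays left out held the highest WT and the lowest Cmah KO value of this probe set (7.40 and 4.95), so these p values depend on that choice.

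Around and downstream of the receptor, 19 of 22 listed signalling genes were measured and 18 were tested, among them the adaptor Bcl10 and the exchange factor Rasgrp3. With all gastrocnemius arrays their median was 0.40 in mdx against WT (13 higher, 6 lower) and 1.00 in Cmah KO, mdx against Cmah KO (15 higher, 4 lower), where the members had -1.43 and -0.47. Without the 2 arrays both lists were mostly higher, the signalling genes with medians of 0.64 and 1.19 and the members with 0.22 and 0.27. limma called 0 of 18 in either, and 1 and 3 had an unadjusted p below 0.05. Many of these genes also act in myeloid cells. The difference from the members was not tested.

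In heart the members were higher on several Cmah KO and Cmah KO, mdx arrays rather than on a single array. Relative to the other 11 hearts, the members lay a median of 2.19 log2 units higher on Cmah KO, mdx replicate 3, 1.74 on Cmah KO replicate 3, 1.47 on Cmah KO replicate 2, 1.27 on Cmah KO, mdx replicate 2 and 0.63 on Cmah KO replicate 1. The only other array above 0 was mdx replicate 1 at 0.21, and the remaining 6 lay at -0.58 to -0.35, Cmah KO, mdx replicate 1 among them. Cmah KO, mdx replicate 3 held the highest value of 4 of the 9 genes, against 6.9% of all genes, and exceeded every other array by more than 2 log2 units for 0 of them, against 0.0055% of all.

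**Figure D2:**
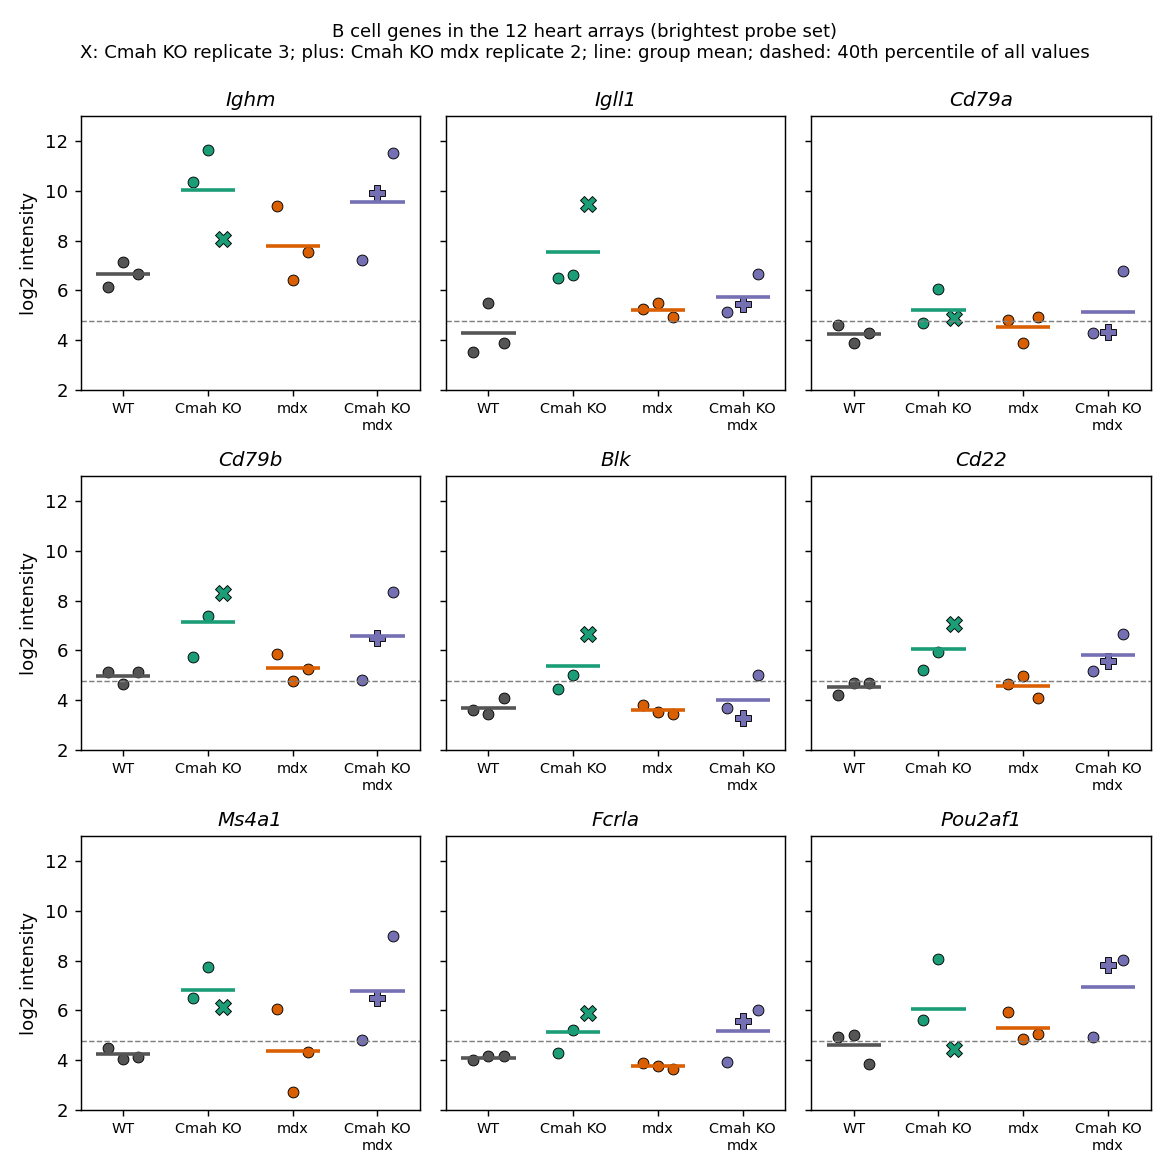
Log2 intensity of the brightest probe set of each of the 9 B cell genes on the 12 heart arrays, by genotype; points are arrays, the cross and the plus sign are the 2 arrays with a high Gapdh difference, the short line is the group mean and the dashed line the 40th percentile of all heart values (4.78). The 3 Cmah KO arrays lie above the 3 WT arrays for every gene except Pou2af1, and the Cmah KO, mdx arrays spread widely.

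Ighm was above the 40th percentile on all 12 hearts as well. It read 6.12, 7.15 and 6.68 log2 intensity in WT, 10.38, 11.66 and 8.08 in Cmah KO, 9.40, 6.40 and 7.53 in mdx, and 7.21, 9.91 and 11.52 in Cmah KO, mdx. All Cmah KO arrays lay above all WT arrays, whereas mdx and Cmah KO, mdx overlapped. Its second probe set, 1427329_a_at, read 5.46, 5.63 and 5.63 in WT, 6.95, 10.12 and 7.07 in Cmah KO, 7.77, 5.34 and 6.37 in mdx, and 5.36, 7.02 and 9.68 in Cmah KO, mdx. It gave the same separation of Cmah KO from WT. The third, 1425385_a_at, did not, at 6.14 to 6.50 in WT and 4.98 to 7.61 in Cmah KO. The other, dimmer Ighm probe sets overlapped between WT and Cmah KO as well, apart from 1452535_at (3.15 to 3.33 in WT and 3.47 to 5.56 in Cmah KO).

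The surrogate light chain gene Igll1 read 3.52, 5.49 and 3.90 in WT, 6.50, 6.63 and 9.46 in Cmah KO, 5.26, 5.50 and 4.92 in mdx, and 5.14, 5.44 and 6.64 in Cmah KO, mdx. Its highest value was on Cmah KO replicate 3, an array of high Gapdh difference, and the Cmah KO arrays were above all WT arrays. The second Igll1 probe set, at 3.47 to 6.39 in Cmah KO and 3.31 to 3.85 in WT, overlapped. Of 7 other genes of B cell precursors, 4 were higher and 3 lower in Cmah KO than in WT (median 0.71), and 5 were higher and 2 lower (median 0.13) without the 2 arrays of high Gapdh difference.

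Among the signal chains, Cd79b read 5.14, 4.63 and 5.14 in WT, 5.72, 7.37 and 8.29 in Cmah KO, 5.87, 4.78 and 5.25 in mdx, and 4.83, 6.52 and 8.34 in Cmah KO, mdx. Cd79a read 4.59, 3.89 and 4.28 in WT, 4.69, 6.06 and 4.90 in Cmah KO, 4.80, 3.88 and 4.91 in mdx, and 4.27, 4.34 and 6.79 in Cmah KO, mdx. Both separated Cmah KO from WT, although for Cd79a the nearest arrays almost touched, and neither separated Cmah KO, mdx from mdx. The kinase Blk read 3.43 to 4.08 in WT, 4.45, 5.03 and 6.65 in Cmah KO, 3.44 to 3.80 in mdx, and 3.67, 3.28 and 5.00 in Cmah KO, mdx.

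Ms4a1 read 4.50, 4.05 and 4.13 in WT, 6.51, 7.76 and 6.16 in Cmah KO, 6.07, 2.71 and 4.34 in mdx, and 4.82, 6.49 and 8.98 in Cmah KO, mdx. Every Cmah KO array exceeded every WT and mdx array. Its second probe set, 1423226_at, gave the same separation from WT, with 2.90 to 4.14 in WT and 5.86 to 6.92 in Cmah KO.

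Cd22 read 4.22, 4.69 and 4.67 in WT, 5.19, 5.92 and 7.06 in Cmah KO, 4.66, 4.98 and 4.09 in mdx, and 5.15, 5.59 and 6.65 in Cmah KO, mdx. It was the only member for which all 6 arrays of Cmah KO and Cmah KO, mdx lay above all 6 of WT and mdx, an order held by 0.181% of all genes. This order was noticed in the values and was not tested. The dimmer Cd22 probe set 1419769_at, which did not pass the filter in heart, did not show it and overlapped in both comparisons. It read 3.08 to 3.15 in WT, 3.02 to 4.42 in Cmah KO, 2.67 to 3.28 in mdx and 2.85 to 4.16 in Cmah KO, mdx. Fcrla read 3.98, 4.15 and 4.15 in WT, 4.30, 5.21 and 5.89 in Cmah KO, 3.90, 3.77 and 3.65 in mdx, and 3.91, 5.57 and 6.01 in Cmah KO, mdx. For Fcrla the groups within each strain label also did not overlap, although the lowest Cmah KO, mdx array was only just above the highest mdx array. The other Fcrla probe sets overlapped in both. Probe set 1419907_s_at read 2.69 to 3.41 in WT, 2.93 to 5.11 in Cmah KO, 2.74 to 4.02 in mdx and 2.84 to 4.89 in Cmah KO, mdx. Probe set 1419908_at read 2.70 to 3.47, 2.83 to 5.11, 2.20 to 3.42 and 2.68 to 5.15 in the same order. Pou2af1 read 4.94, 5.00 and 3.85 in WT, 5.63, 8.06 and 4.45 in Cmah KO, 5.92, 4.84 and 5.05 in mdx, and 4.94, 7.83 and 8.02 in Cmah KO, mdx, and it overlapped in both comparisons.

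In Cmah KO against WT hearts, 9 of 9 genes were higher, with a median of 1.68 log2 units (0.96 to 3.39) against -0.08 over all genes. For 8 of the 9, all but Pou2af1, the 3 Cmah KO arrays lay above the 3 WT arrays, against 3.83% of all genes. Ighm was 3.39 ± 1.13 higher (SE, n = 3 against 3), Igll1 3.23 ± 0.79, Ms4a1 2.58 ± 0.99 and Cd79b 2.16 ± 0.82. Blk followed at 1.68 ± 0.60, Cd22 at 1.53 ± 0.55, Pou2af1 at 1.45 ± 0.94, Fcrla at 1.03 ± 0.57 and Cd79a at 0.96 ± 0.67. Of the 16 member probe sets that passed the filter, from all 9 genes, limma called 0, against 0% of all probe sets tested, and 10 in 6 genes had an unadjusted p below 0.05. The lowest adjusted p (limma, Benjamini-Hochberg) was 0.686. However, 6 of the 16 probe sets passed the filter only through Cmah KO and Cmah KO, mdx arrays, so that they entered the test because they were high there: that of Blk, 2 of Fcrla and 3 dim ones of Ighm. In Blk and Fcrla all WT and mdx hearts lay below the 40th percentile, and the size of their differences is not exact. Of the other 10 probe sets 7 had an unadjusted p below 0.05, in Cd22, Cd79b, Ighm, Igll1 and Ms4a1. In Cd22, Cd79a and both Ms4a1 probe sets, however, no WT heart was above the 40th percentile. The WT hearts read 4.22 to 4.69, 3.89 to 4.59, 4.05 to 4.50 and 2.90 to 4.14 there. These probe sets too passed without any WT array, and the size of their differences from WT is not exact.

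Leaving out Cmah KO replicate 3 and Cmah KO, mdx replicate 2 kept the direction. The median was 1.57 and 9 of 9 genes did not overlap, with 2 arrays against 3, where 6.57% of all genes did not. Ighm was then 4.37 ± 1.21 higher (SE), Ms4a1 2.90 ± 1.21, Igll1 2.26 ± 0.60 and Pou2af1 2.25 ± 0.95. limma called 0 of 16, with 7 at an unadjusted p below 0.05 and a lowest adjusted p of 1.00. With all arrays, the median of all tested probe sets in this comparison was -0.37 as deposited, -0.40 after median scaling and -0.23 after quantile scaling, and the median over all genes without the 2 arrays was 0.02.

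In Cmah KO, mdx against mdx hearts, 9 of 9 genes were again higher, with a median of 1.26 against 0.07 over all genes, and 1.21 without the 2 arrays. Fcrla and Cd22 did not overlap, 2 of 9 genes, against 6.04% of all, and the same 2 genes did not overlap without the 2 arrays, against 7.78% of all. limma called 0 of 16, against 0% of all, and 3 had an unadjusted p below 0.05: Ms4a1 (2.39 ± 0.99 SE), Fcrla (1.39 ± 0.57) and Cd22 (1.22 ± 0.55), with a lowest adjusted p of 0.994. Fcrla is one of the genes that passed the filter only through Cmah KO and Cmah KO, mdx arrays, and without the 2 arrays only Ms4a1 and Cd22 had an unadjusted p below 0.05. The WT and mdx controls of the Cmah comparisons are different animals.

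**Figure D3:**
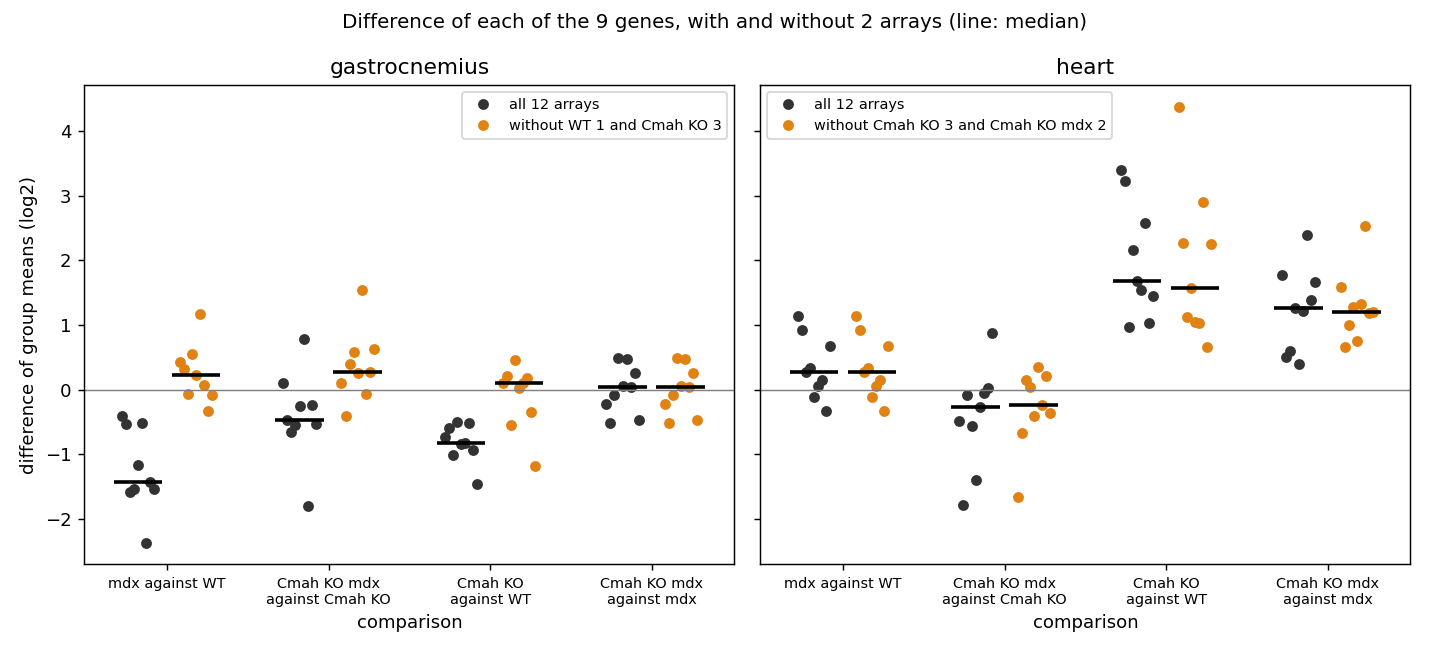
Difference of group means in log2 units for each of the 9 genes (points) in 4 comparisons, in gastrocnemius (left) and heart (right), with all 12 arrays (black) and without the 2 arrays that stood apart in that tissue (orange); lines are medians. In gastrocnemius the medians of -1.43, -0.47 and -0.82 become 0.22, 0.27 and 0.11, whereas in heart the Cmah KO medians of 1.68 and 1.26 become 1.57 and 1.21.

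The comparisons across dystrophin loss gave smaller differences in heart. In mdx against WT the median was 0.27, with 7 genes higher and 2 lower, and neither array left out belongs to these groups. limma called 0 of 16 against 0% of all, and 0 had an unadjusted p below 0.05. Fcrla alone did not overlap, being lower in mdx, as 3.77% of genes were. In Cmah KO, mdx against Cmah KO the median was -0.26 (2 higher, 7 lower), and -0.23 without the 2 arrays. limma called 0 of 16, against 0% of all, and 2 had an unadjusted p below 0.05, Igll1 (-1.79 ± 0.79 SE) and Blk (-1.40 ± 0.60), each with an adjusted p of 0.841. Both genes read highest on Cmah KO replicate 3, and without that array the differences were -0.82 and -0.76. Without both arrays of high Gapdh difference 0 member probe sets had an unadjusted p below 0.05 here. The interaction of the mutations was called for 0 of 16, against 0% of all, and 1 had an unadjusted p below 0.05, Igll1 at -2.72 ± 1.11 (SE; adjusted p = 0.999), which was -1.60 without the 2 arrays, when 0 were below 0.05.

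Other lists moved with the members in heart, to differing extents. In Cmah KO against WT, 16 of 20 other B lineage genes were higher, with a median of 0.84 and 7 without overlap, and 0.62 with 8 without overlap when the 2 arrays were left out. The 6 lymph node stroma genes were all higher (median 1.05, and 0.45 without the arrays), and 14 of 15 T cell genes were (0.69, and 0.18 without). Fcer2a and Cr2 of the stroma list are also in the other B lineage list. Adipocyte genes had a median of 0.82, and 0.72 without the arrays, while 13 of 14 macrophage genes were lower, with a median of -1.09, and -0.44 without. None of these genes passed the adjusted threshold. In Cmah KO, mdx against mdx, 19 of 20 other B lineage genes were higher (median 0.74, and 0.42 without the arrays), 13 of 15 T cell genes (0.40, and 0.42), 5 of 6 lymph node stroma genes (0.62, and 0.54 with 6 of 6) and 10 of 10 neutrophil genes (0.58, and 0.25 with 9 of 10). The 8 airway and lung genes described below were all higher (1.08, and 0.49 with 6 of 8). That list was chosen after the high values of Cmah KO, mdx replicate 3 were seen, so its direction was partly set by the choice. By contrast, 10 of 10 skeletal muscle genes were lower (-2.20, and -1.49). In this comparison 4 adipocyte genes were higher and 3 lower (0.05), and 5 macrophage genes were higher and 9 lower (-0.13), with all arrays. The part of these lists in the member differences was not tested. The 9 members summed to a linear intensity of 240 to 329 in WT, 1705 to 4187 in Cmah KO, 264 to 981 in mdx and 353 to 4425 in Cmah KO, mdx.

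**Figure D4:**
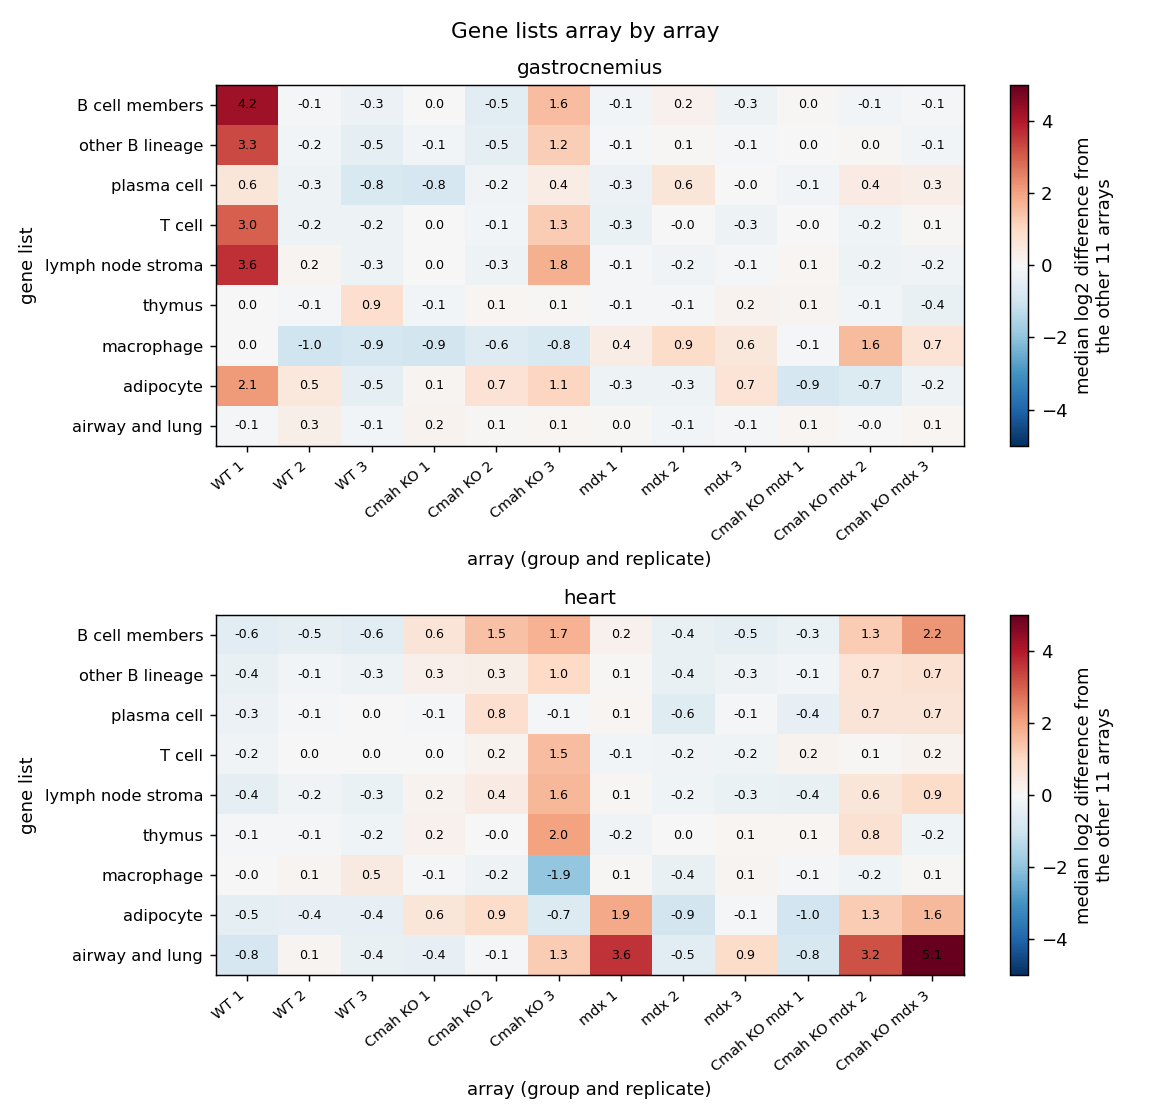
Median log2 difference of each gene list from the other 11 arrays of the tissue (colour and printed value), for the 12 gastrocnemius arrays (top) and the 12 heart arrays (bottom). In gastrocnemius the B cell, other B lineage, T cell and lymph node stroma lists share WT replicate 1 and Cmah KO replicate 3; in heart the B cell members are raised on 5 of the 6 arrays without Cmah, and the airway and lung list on mdx replicate 1 and Cmah KO, mdx replicates 2 and 3.

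Single genes of the other lists show what the high hearts held besides B cell transcripts. Cxcl13 read 5.99, 7.29 and 6.47 in WT, 9.64, 9.74 and 7.00 in Cmah KO, 8.66, 5.23 and 6.97 in mdx, and 6.77, 7.92 and 10.53 in Cmah KO, mdx. Adipoq, a fat cell hormone, read 6.66, 7.53 and 6.41 in WT, 8.72, 9.66 and 4.18 in Cmah KO, 10.10, 3.83 and 8.47 in mdx, and 5.25, 9.45 and 9.69 in Cmah KO, mdx. Glycam1 was at or under 3.91 on 8 hearts and read 6.41, 6.00, 5.73 and 5.01 on the 4 with the highest member levels, well short of the 12.31 in gastrocnemius WT replicate 1. The arrays high in Ighm were thus mostly high in Cxcl13 and Adipoq too, mdx replicate 1 included, whereas Cmah KO replicate 3 read 7.00 and 4.18 for the pair. Fabp4 and Pparg, the brighter adipocyte genes, did not follow Adipoq throughout. Fabp4 read 12.76 to 12.99 on every heart but Cmah KO replicate 3 (11.93). Pparg read 7.73 to 8.38 in WT, 8.19 and 8.25 on Cmah KO replicates 1 and 2, and 7.70 on mdx replicate 1. On Cmah KO, mdx replicates 2 and 3 it read 10.05 and 8.44. The adipocyte list lay a median of 0.61, 0.92, 1.90, 1.25 and 1.64 above the other hearts on these arrays, in the same order. The part of fat or lymphoid tissue in the heart samples was not tested.

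Antibody-secreting cells also use immunoglobulin heavy chains, so 2 plasma cell genes are given, chosen after their values were seen. Jchain, the joining chain of secreted IgM and IgA, read 5.58, 7.93 and 4.93 in WT, 10.28, 11.26 and 6.28 in Cmah KO, 9.86, 6.35 and 6.50 in mdx, and 5.43, 8.27 and 10.98 in Cmah KO, mdx hearts. Igha, the IgA heavy chain, was highest on Cmah KO replicate 3 (12.41), Cmah KO, mdx replicate 3 (10.41) and replicate 2 (8.88), and Cmah KO replicate 2 (8.73). The 3 hearts highest in Jchain, Cmah KO replicates 1 and 2 and Cmah KO, mdx replicate 3, were also the 3 highest in Ighm. Over the 12 plasma cell genes measured, 8 were higher and 4 lower in Cmah KO than in WT, with a median of 0.40, and 0.32 without the 2 arrays of high Gapdh difference.

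On Cmah KO, mdx replicate 3, the heart with the highest member level, the 15 genes with the largest gap to the next array were led by Reg3g (2.37) and Scgb3a1 (1.80). They also held Wfdc2, Cdh1, Scgb3a2, Bpifa1, Ms4a1 (1.22), Plac8, Fcna, Fcmr, Cyp2f2, H2-Oa, 5730409E04Rik, Pafah1b3 and Cbr2 (0.84). Several of these are genes of airway epithelium, and a list of 8 airway and lung genes, chosen after these values were seen, lay 5.13 above the other hearts on this array, 3.63 on mdx replicate 1 and 3.17 on Cmah KO, mdx replicate 2. Among the Cmah KO arrays, which were high in the members, it lay at -0.43, -0.11 and 1.26, and on mdx replicate 3 at 0.92. Scgb1a1, a secretory protein of airway club cells, read 11.61 on mdx replicate 1, 11.94 and 12.45 on Cmah KO, mdx replicates 2 and 3, and at most 8.07 on the other 9 hearts.

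The 10 genes most like the members' mean over the 12 hearts were Iglv1 (r 0.96), Glycam1, Ighg3, Spib, Mzb1, an immunoglobulin kappa variable segment, Ly6d, Fcmr, Tnfrsf13c and Ighv14-2 (0.90). Without Cmah KO, mdx replicate 3 their r ran from 0.84 to 0.94. Glycam1, Spib, Fcmr, Tnfrsf13c and Ighv14-2 were among the 10 in gastrocnemius as well, whereas the T cell genes Cd8a and Cd3g were among the 10 there only. Pairs of members had a median r of 0.69 (0.09 to 0.93) in heart, and 0.64 without that array. These are descriptions over arrays that share a few high samples.

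Between the tissues, in the mean of the 4 genotypes, few member probe sets passed the threshold with all arrays. With both tissues of an animal treated as a block, 1 of 11 tested member probe sets was called by limma, Ighm 1425385_a_at, which was 1.80 ± 0.37 log2 units higher in heart (SE, n = 12 against 12; adjusted p = 0.000729), against 28.8% of all probe sets called. Without the 4 arrays that stood apart, 5 of 11 were called, all higher in heart, where 41.5% of all probe sets were called and 23.7% were called higher. They were Ms4a1 at 2.60 ± 0.42 (adjusted p = 0.000138) with its second probe set at 1.85 ± 0.34, Ighm 1425385_a_at at 1.98 ± 0.27 (adjusted p = 2.5e-05), Pou2af1 at 1.35 ± 0.38 (adjusted p = 0.00939) and Cd79b at 1.17 ± 0.33 (adjusted p = 0.0100). The gastrocnemius values of both Ms4a1 probe sets lay at the floor of the array once the named arrays were out, so that the size of the Ms4a1 difference is not exact. Apart from those named arrays, both probe sets passed the filter on low values only through hearts. They thus entered this test because they were high in heart, and their calls carry no weight of their own. The gastrocnemius arrays left out were picked for their high member values, Pou2af1 and Cd79b included. Leaving them out lowers the gastrocnemius means of these genes, so the calls of Pou2af1 and Cd79b rest partly on that choice. With all arrays Pou2af1 differed by 0.58 and Cd79b by 0.51, and neither was called. The brightest Ighm probe set differed by -0.13 ± 0.44 with all arrays.

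Whether a genotype difference itself differed between heart and gastrocnemius was tested in the same model. For Cmah KO against WT, limma called 0 of 11 member probe sets, against 0% of all, and 5 in Fcrla, Ighm, Igll1 and Ms4a1 had an unadjusted p below 0.05, all with a higher value in heart. The Ighm difference was 4.12 ± 1.26 log2 units larger in heart and that of Igll1 3.81 ± 1.10 (SE, adjusted p = 0.649 for each). Without gastrocnemius WT replicate 1 alone, that of Ms4a1 fell from 3.09 to 0.64 and that of Fcrla from 1.96 to 0.87. Without the 4 arrays that stood apart, 5 probe sets in Cd79a, Ighm, Ms4a1 and Pou2af1 had an unadjusted p below 0.05 and none was called, with Ighm at 4.27 and Igll1 at 2.01. For Cmah KO, mdx against mdx, mdx against WT, and Cmah KO, mdx against Cmah KO, 0 of 11 were called, against 0%, 0% and 0.0575% of all, with 0, 1 and 1 at an unadjusted p below 0.05. Without the 4 arrays there were 2, 0 and 0, the 2 being the probe sets of Ms4a1.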

How the data were processed

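The members and gene lists were chosen with earlier results of these data known, and a list of airway and lung genes and the runs without the arrays that stood apart were added after the values were seen. The deposited values are linear intensity values, which the authors made with GCOS and RMA per the submitters' processing notes, with no version given, from 25 ng of RNA amplified by NuGEN Ovation, as the labels say. Of 45101 probe sets 64 control probe sets were set aside, and log2 was taken of the rest. Group means of the 4 genotypes were fitted per tissue with limma 3.58.1 in R 4.3.3 (lmFit, eBayes, two-sided, Benjamini-Hochberg over all tested probe sets, threshold 0.05). A probe set was tested if at least 3 of 12 arrays lay above the 40th percentile of the tissue's values (4.66 in gastrocnemius, 4.78 in heart). The tissues were compared over 24 arrays with the animal as a random block (duplicateCorrelation, statmod 1.5.0; at least 6 of 24 arrays above 4.72). The animal of each array came from numbers in the labels. All 9 members are named. Other genes were named by level, as the 15 with the largest gap on the array where the members are highest, or as the 10 most alike, and exceptions are marked. The fit was tested on simulated data. The number of arrays limits the precision.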

Additional observations from a re-analysis of the deposited data

How the results depend on the processing

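Counts of member probe sets called stayed at 0 in every within-tissue comparison under every alternative but 1: with array weights 1 probe set, Igll1, was called in heart mdx against WT, among 133 of 29421 called. In gastrocnemius the median difference of the 9 genes changed sign when WT replicate 1 and Cmah KO replicate 3 were left out together, an alternative chosen after seeing the data, from -1.43 to 0.22 in mdx against WT, from -0.47 to 0.27 in Cmah KO, mdx against Cmah KO and from -0.82 to 0.11 in Cmah KO against WT; in Cmah KO, mdx against mdx it went from 0.043 to -0.043 with the mean of all probe sets of a gene. Leaving out each replicate in turn gave medians in gastrocnemius of -1.98 to 0.22 in mdx against WT (highest without WT replicate 1), -1.04 to 0.27 in Cmah KO, mdx against Cmah KO (highest without Cmah KO replicate 3), -1.59 to 0.51 in Cmah KO against WT (highest without WT replicate 1) and -0.14 to 0.053 in Cmah KO, mdx against mdx. In heart the ranges were 0.046 to 0.60, -1.15 to 0.35, 1.57 to 2.14 and 0.78 to 2.02 in the same order. Between tissues the 1 call became 5 without the 4 arrays that stood apart, also chosen after seeing the data, and 1 to 4 with each replicate left out, 4 without gastrocnemius WT replicate 1 and 2 without gastrocnemius Cmah KO replicate 3, heart Cmah KO replicate 2 or heart Cmah KO, mdx replicate 3. Why these values moved was not tested beyond the arrays named.

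Arrays of different genotypes were paired within a tissue, after the group mean had been subtracted from every tested probe set. For these deviations, same-numbered arrays correlated at -0.58 to 0.61 in gastrocnemius (median 0.175, 10 of 18 pairs over 0.1) and -0.42 to 0.64 in heart (median 0.0022, 6 of 18). Differently numbered arrays had a median of -0.092 in gastrocnemius (14 of 36 pairs over 0.1) and -0.054 in heart (14 of 36). In gastrocnemius same-numbered arrays were thus somewhat more alike in their deviations from the group means. Whether arrays of the same number were handled together was not tested. With the replicate block 0 member probe sets were called in each within-tissue comparison and 1 between tissues.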
